A study of Mus musculus with 10 samples.

Results

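The age difference within wild-type (WT) intermediate lobes (ILs) was described by comparing 2 libraries from 7-month-old mice with 3 libraries from 2-month-old mice, across autosomal genes. A gene entered when its normalised value, taken off the log2 scale, averaged at least 10 over all 10 libraries of the experiment. This left 13624 autosomal genes of the 16556 tested, and 74 of them were called at an adjusted p under 0.05, 36 higher and 38 lower at 7 months. The study sequenced bulk RNA from dissected ILs of WT mice and of p27-/- mice, which lack *Cdkn1b*, the gene of the cell cycle inhibitor p27, in every cell. The p27-/- groups hold 2 libraries at 2 months and 3 at 7 months. They serve here to estimate the spread within groups and to set the WT difference beside the difference in the mutant. The labels name no engineered allele in the WT animals. The study's record lists 3 male WT mice at 2 months, and 1 female and 1 male at 7 months.

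The IL lies between the anterior lobe (AL) and the posterior lobe of the pituitary and is made mostly of melanotrophs. These endocrine cells express *Pomc*, which encodes the precursor of alpha-melanocyte-stimulating hormone, and cut the precursor with the prohormone convertases PC1 and PC2. Their identity depends on the transcription factors TBX19 and PAX7. Stem cells (SCs) that express *Sox2* and *Sox9* line the cleft beside the AL, and dopamine from hypothalamic nerve endings restrains secretion and division of the melanotrophs.

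Values are log2 normalised expression, so that a difference of 1 is a 2-fold change. *Pomc* lay between 16.12 and 17.09 in the 5 WT libraries, *Pax7* between 11.23 and 11.56 and *Tbx19* between 9.65 and 9.90, as the tissue label requires. Genes of the AL were present too, with *Prl* between 11.86 and 13.97, and among posterior lobe genes *Nkx2-1* was at 5.55 in replicate 2 of 2 months against 2.89 to 4.02 in the other WT libraries. The sexes differed between the ages. *Xist*, which is transcribed from the inactive X chromosome of females, was at 14.21 and 14.51 at 7 months and at 7.32, 7.70 and 7.52 at 2 months. The Y-linked gene *Ddx3y* was at 4.77 and 4.76 at 7 months and at 9.19, 9.12 and 8.97 at 2 months. Both 7-month WT libraries therefore carried the pattern of a female, and 1 of them goes against its recorded sex. Age and sex cannot be told apart within WT. Mitochondrially encoded genes took 19.3% and 28.0% of the back-transformed total at 7 months, and 24.2%, 30.2% and 41.1% at 2 months. The depth of each library is unknown, because the values are not counts.

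The comparison asked which genes differ between young adult and older normal ILs. Of the 13624 autosomal genes, 0.543% were called, 0.264% higher and 0.279% lower at 7 months, by limma over all 16556 genes tested. The median difference over all autosomal genes was -0.03. An unadjusted p under 0.05 was reached by 2473 genes, 1102 higher and 1371 lower. The 36 genes that rose had differences from 0.77 to 2.42 with a median of 1.00, and the 38 genes that fell had differences from -2.94 to -0.73 with a median of -1.10. In all 74 both 7-month libraries lay beyond all 3 libraries of 2 months. Over all autosomal genes, 15.7% were higher without overlap and 19.6% were lower without overlap.

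The number of calls depended on single libraries. It was 79, 56 and 1 without replicates 1, 2 and 3 of 2 months in WT. It was also below 74 in each fit that left 1 library in a group. The direction of the 74 genes could not change in fits without 1 library. Their ages do not overlap, and the p27-/- libraries do not enter the WT difference. Of the 5 fits that left out 1 WT library, *Gm10419* was called in 4, *Gh*, *Ednrb*, *Gem* and *Ank1* in 3, and 21 of the 74 genes in 0. The genes *Gzmb*, *Trgc1*, *Gm15725* and *Rbp4* passed the minimum of 10 only through the group where they are high, so their calls support nothing, and they are described by their values alone. With log2 *Xist* as a covariate, which takes the effect of sex from the p27-/- libraries, 0 genes were called. All 74 kept their direction there, 72 of them at an unadjusted p under 0.05, and 8 (*Reln*, *Dlgap1*, *Ednrb*, *Ptchd4*, *Cd109*, *Tln2*, *Chst8* and *2210408I21Rik*) had a difference smaller by more than 1.5 times.

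**Figure D1:**
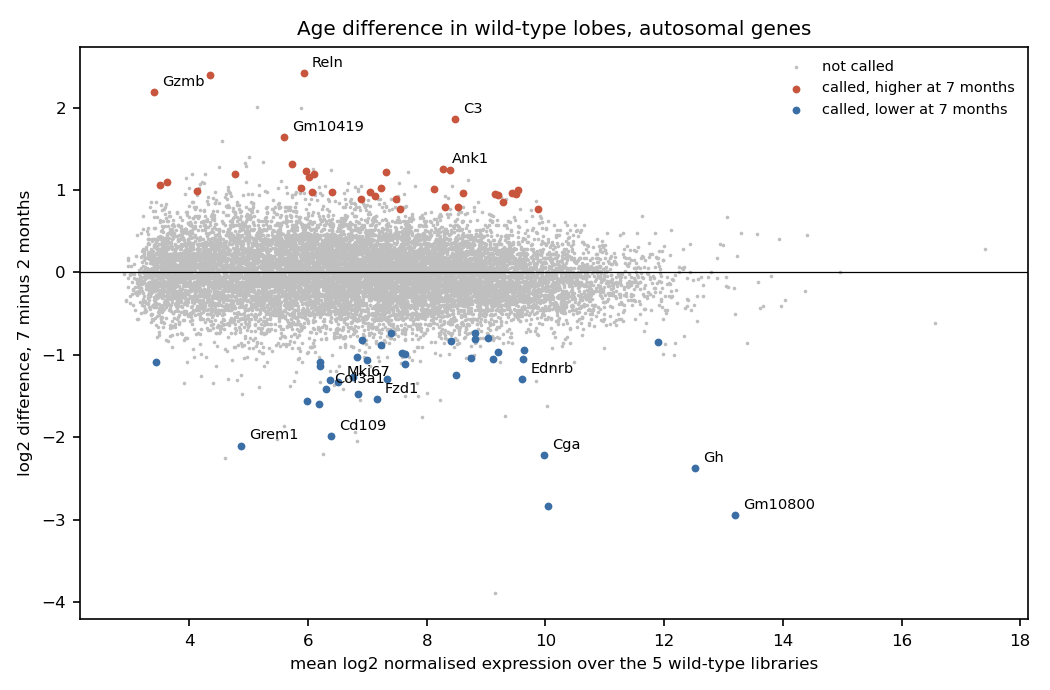
Each point is 1 of the 13624 autosomal genes, with its mean log2 normalised expression over the 5 WT libraries on the x axis and the log2 difference between 7 and 2 months on the y axis. Red points are the 36 genes called higher and blue points the 38 called lower at 7 months, from *Reln* (2.42) to *Gm10800* (-2.94), including the 4 given without a test.

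Some genes of cytotoxic lymphocytes were higher at 7 months. *Gzmb* (ENSMUSG00000015437; GRCm38 chromosome 14, 56258836 to 56262334) encodes granzyme B, a protease that killer cells release into their targets. It was at 4.97 and 4.47 at 7 months and at 2.61, 2.51 and 2.47 at 2 months. Both older libraries stood above the younger ones, with a difference of 2.19. Without the 7-month libraries its mean off the log2 scale was 6.63, under the minimum for testing, so no test is given. *Cd8a*, the CD8 alpha chain of cytotoxic T cells, rose from 3.02, 3.26 and 3.28 to 4.48 and 4.10, by 1.10 (SE 0.21, limma adjusted p = 0.0378), and it was not called without any 1 of the 5 WT libraries (limma adjusted p = 0.0549 to 0.255). *Tigit*, an inhibitory receptor of T and natural killer cells, was at 4.69 and 4.77 against 3.78, 3.91 and 3.52 and rose by 0.99 (limma adjusted p = 0.0415). *Trgc1*, a constant region of the T cell receptor gamma chain, was at 4.32 and 3.98 against 3.10, 2.83 and 3.33, and is likewise given without a test (mean of 9.23 without the 7-month libraries). *Gzmb*, *Trgc1* and *Tigit* were singled out after their values were seen, and *Cd8a* belongs to the lymphocyte list.

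Other lymphocyte genes did not follow throughout. *Gzma*, the gene of granzyme A, averaged 8.94 off the log2 scale and was therefore below the minimum of 10, and was not tested. It was at 4.73 and 4.14 at 7 months and at 2.29, 2.61 and 2.39 at 2 months, so its libraries did not overlap either. *Cd3e*, a chain of the T cell receptor complex, was at 5.12 and 5.11 against 4.59, 4.67 and 4.98, a difference of 0.37 that did not pass (limma adjusted p = 0.513). *Cd4* differed by -0.01. The T cell receptor gene *Trac* differed by -0.22 and was lower without overlap, at 3.88 and 3.77 against 4.07, 4.08 and 3.99. Among genes under the minimum of 10, *Cd8b1* overlapped, at 2.24 and 2.52 against 2.23, 2.32 and 2.24. The ages of *Cd3d* and *Cd3g* overlapped too. *Trgc2* was higher without overlap, at 3.74 and 3.37 against 2.94, 2.87 and 3.14. *Ptprc*, which encodes CD45 of all white blood cells, was at 6.76 and 6.96 against 6.84, 6.50 and 6.71. The granule genes *Prf1* and *Nkg7* stayed at -1.01 to -1.0 and at 0.63 to 0.80 in the WT libraries, near the floor of the table. The T and B lymphocyte list had 4 genes tested, 1 of them called higher, against 0.264% of all autosomal genes. Its median was 0.18, and it was -0.23 with log2 *Xist* as a covariate. In bulk RNA, more cells of a type and more RNA per cell cannot be told apart, and the same holds for fewer cells and less RNA.

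*C3* (ENSMUSG00000024164; chromosome 17, 57203967 to 57228136), the central component of complement, was the largest rise among genes with a mean of at least 100. It was at 9.49 and 9.69 at 7 months and at 7.70, 7.61 and 7.88 at 2 months, a rise of 1.86 (SE 0.38, limma adjusted p = 0.0429). The SDs were 0.138 (n = 2) and 0.135 (n = 3). The call was lost after a correction for GC content (1.82, limma adjusted p = 0.0536) and without any 1 of the 5 WT libraries (limma adjusted p = 0.0649 to 0.206). No other of the 7 complement and acute phase genes tested was called, and their median was -0.14 (0.09 after the GC correction), with *C1s1* at -0.58 and *Cfb* at 0.17. The macrophage and microglia list (13 genes, 0 called) had a median of -0.30 (-0.11 without replicate 1 of 7 months and -0.16 without replicate 2 of 2 months), with the complement gene *C1qb* at -0.60. The antigen presentation list (16 genes, 0 called) had a median of 0.01, which lay between -0.22 and 0.19 under the alternatives. The interferon response list (20 genes, 0 called) had one of -0.39 (-0.23 without replicate 2 of 7 months, -0.24 without replicate 3 of 2 months). In this list the ages separated downwards for 7 genes and upwards for 0, against 19.6% and 15.7% of all autosomal genes.

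Several genes of the membrane skeleton and of synapses were called higher at 7 months. *Ank1* (ENSMUSG00000031543; chromosome 8, 22974836 to 23150501), which encodes an ankyrin that ties membrane proteins to spectrin, was at 8.78 and 9.27 against 7.78, 7.99 and 7.56, and rose by 1.25 (SE 0.19, limma adjusted p = 0.0201). The beta spectrin gene *Sptbn4* rose by 1.22 (limma adjusted p = 0.0289). Both 7-month libraries were above all younger ones for each of these genes. *Dlgap1*, a scaffold protein of the postsynaptic density, rose from 8.17, 7.77 and 7.73 to 9.04 and 9.22, by 1.24 (limma adjusted p = 0.0289), and by 0.65 with log2 *Xist* as a covariate. *Shank1*, a scaffold of the same structure, rose by 0.77 and *Shisa7*, an auxiliary protein of neurotransmitter receptors, by 0.89. *Cacna1a*, the pore of P/Q-type calcium channels, rose by 0.85 and *Dnm1*, the dynamin of synaptic vesicle retrieval, by 0.79. The adjusted p-values of these 4 genes by limma ran from 0.0354 to 0.0429, and from 0.0506 to 0.0715 after the GC correction, where none of the 4 was called. *Kif21b*, a kinesin motor, was at 9.78 and 9.66 against 8.90, 8.67 and 8.72 and rose by 0.95 (SE 0.15, limma adjusted p = 0.0201). *Shank1*, *Shisa7*, *Cacna1a* and *Dnm1* were chosen after their values were seen, and no test was made of whether such genes were overrepresented.

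The other rises of the larger genes included *Gnal*, the alpha subunit of a stimulatory G protein. It was at 10.09 and 10.16 against 9.28, 8.80 and 9.31, and rose by 1.00 (limma adjusted p = 0.0292). *Tln2*, a talin that links integrins to actin, rose by 0.95 and *Celsr3*, an atypical cadherin, by 0.97. *Tle3*, a Groucho-type corepressor, rose by 0.94 and *Scrt1*, a zinc finger repressor, by 0.89. *Chst8*, a sulfotransferase that acts on the glycans of pituitary hormones, rose by 0.97, with 9.22 and 9.16 against 8.29, 8.15 and 8.23. *Jakmip3* rose by 1.02, *2210408I21Rik* by 1.01, *Vwa5b2* by 0.98 and *AB041803* by 0.93. These 9 genes had adjusted p-values between 0.0304 and 0.0486 by limma. After the GC correction *Tln2*, *Celsr3*, *Chst8* and *Scrt1* were not called (limma adjusted p = 0.0506, 0.0531, 0.0622 and 0.0825). With log2 *Xist* as a covariate the differences of *Tln2*, *Chst8* and *2210408I21Rik* were 0.52, 0.45 and 0.62.

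Among genes of lower level, which were picked after their values were seen, the rise of *Reln* was the largest of all. *Reln* (ENSMUSG00000042453; chromosome 5, 21884454 to 22344705) encodes reelin, a large secreted matrix glycoprotein. It was at 7.21 and 7.55 at 7 months and at 5.16, 4.49 and 5.23 at 2 months, a rise of 2.42 (SE 0.45, limma adjusted p = 0.0329). With log2 *Xist* as a covariate this rise was 1.22. In p27-/- lobes of 2 months *Reln* was at 7.28 in the *Xist*-high library and at 5.45 in the other. In those of 7 months it was at 6.59 in the *Xist*-high library and at 6.40 and 5.31 in the others. *Gm10419* rose from 4.96, 4.99 and 4.88 to 6.68 and 6.48, by 1.64 (SE 0.21, limma adjusted p = 0.00893). *Hapln4*, a link protein of hyaluronan, rose by 1.31 and *Nxph1*, a ligand of neurexins, by 1.19 (both limma adjusted p = 0.0289). *Gm15725* differed among the younger libraries themselves, at 4.97, 2.66 and 2.59, against 6.16 and 5.43.

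**Figure D2:**
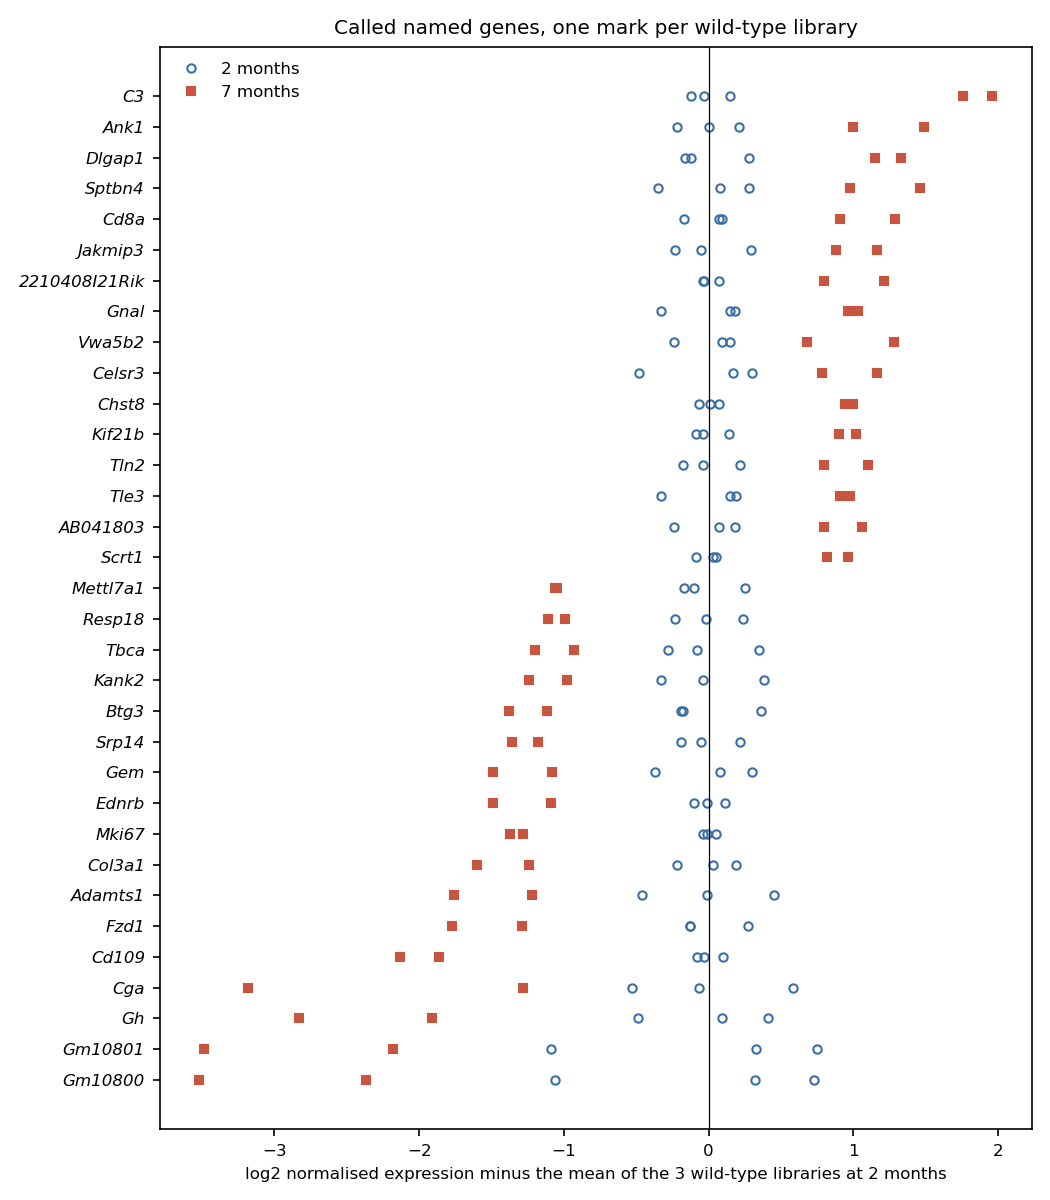
Each row is one of the genes called and named by rule, and each mark a WT library, placed by its log2 normalised expression minus the mean of the 3 libraries of 2 months (circles, 2 months; squares, 7 months). The groups do not overlap for any of these genes, and *Gm10800*, *Gm10801* and *Cga* have the widest spread within ages.

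AL hormone genes were among the largest falls. *Gh* (ENSMUSG00000020713; chromosome 11, 106300261 to 106303703), the growth hormone gene of somatotrophs, was at 11.56 and 10.64 at 7 months and at 13.88, 12.98 and 13.56 at 2 months. It fell by 2.37 (SE 0.33, limma adjusted p = 0.0175), and by 3.01 with log2 *Xist* as a covariate. The call was lost without replicate 2 of 7 months (limma adjusted p = 0.076) and without replicate 3 of 2 months (0.0643). *Cga* (ENSMUSG00000028298; chromosome 4, 34893779 to 34907374), which encodes the alpha subunit shared by the gonadotrophins and thyrotrophin, was at 9.58 and 7.68 against 11.44, 10.33 and 10.79. *Cga* fell by 2.22 (SE 0.45, limma adjusted p = 0.0429). Its difference moved to -1.27 without replicate 2 of 7 months and to -3.17 without replicate 1, and the call was lost after the GC correction (limma adjusted p = 0.0543), without replicate 2 of 7 months (0.165) and without replicate 1 or 3 of 2 months (0.0759 and 0.121).

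The remaining AL genes were mostly lower without passing. *Fshb*, the beta subunit of follicle-stimulating hormone, was at 6.86 and 6.78 against 11.32, 9.55 and 11.26, the largest difference of any autosomal gene (-3.89, limma adjusted p = 0.0585), and it was -1.21 with log2 *Xist* as a covariate. The gonadotrophin-releasing hormone receptor gene *Gnrhr* differed by -1.75 and *Pou1f1*, the transcription factor of somatotrophs, lactotrophs and thyrotrophs, by -1.02 (limma adjusted p = 0.0850 and 0.0864). *Prl*, the hormone of lactotrophs, differed the other way, by 0.67, and its ages overlapped. Of the 10 AL endocrine genes tested, 2 were called lower, against 0.279% of all autosomal genes, and the median was -0.87. Without overlap 6 were lower and 0 higher, against 19.6% and 15.7% of all autosomal genes. The summed level of this list was 13.32 to 14.32 at 7 months and 13.80 to 14.85 at 2 months, so the sums overlapped. High genes weigh most in a sum, and *Prl* had the highest mean log2 value of the list over the 10 libraries. In p27-/- lobes the sum was 14.82 (2 months) and 14.93 (7 months) in the *Xist*-high libraries. It was 12.63 (2 months), 11.67 and 12.86 (7 months) in the others. How much AL tissue each dissected lobe carried was not tested.

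Other neighbouring cell types had no gene called. The posterior lobe list (8 genes) had a median of -0.60 (-0.32 without replicate 2 of 2 months) and a summed level of 10.68 to 10.71 at 7 months against 10.90 to 12.56 at 2 months, where the highest was replicate 2. In that library *Scn7a* was at 11.80 and *Col25a1* at 9.91, against 9.70 and 9.63, and 7.88 and 7.58, in the other libraries of that age. The endothelial and pericyte list (12 genes) had a median of -0.52 (-0.27 without replicate 2 of 7 months) with 6 genes lower and 0 higher without overlap, led by the VEGF receptor gene *Flt1* (-1.03, limma adjusted p = 0.101) and the cadherin gene *Cdh5* (-0.91). Over all autosomal genes, 19.6% were lower and 15.7% higher without overlap. The sums of the endothelial list were 9.65 to 9.93 at 7 months and 10.11 to 10.60 at 2 months. The fibroblast and meninges list (8 genes) had a median of -0.34 (-0.18 without replicate 1 and -0.60 without replicate 2 of 7 months) and the myelin and oligodendrocyte list (5 genes) one of 0.00 (-0.30 without replicate 2). The red blood cell list (3 genes) had a median of -1.34 (-0.43 without replicate 1 and -2.24 without replicate 2 of 7 months, -0.53 without replicate 3 of 2 months), with *Hba-a1* at -1.94 and its ages overlapping. What these cells contributed to the differences was not tested.

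Of the markers of dividing cells 1 was called lower at 7 months. *Mki67* (ENSMUSG00000031004; chromosome 7, 135689784 to 135716450), the gene of the Ki-67 antigen of cycling cells, was at 5.66 and 5.75 at 7 months and at 6.99, 7.02 and 7.08 at 2 months. The SDs were 0.0692 (n = 2) and 0.0407 (n = 3), and *Mki67* fell by 1.33 (SE 0.26, limma adjusted p = 0.0378), a call not kept without any 1 of the 5 WT libraries (limma adjusted p = 0.0554 to 0.215). With log2 *Xist* as a covariate the difference of *Mki67* was -1.28 and was not called (limma adjusted p = 0.235). Of 19 cell cycle genes tested *Mki67* was the 1 called, against 0.279% of all autosomal genes called lower. The topoisomerase gene *Top2a* differed by -0.87 (limma adjusted p = 0.173), the motor gene *Kif11* by -0.70 and *Pcna*, the sliding clamp of replication, by -0.62, whereas *Mcm2* was at 0.03, *Ccna2* at -0.11 and *Bub1b* at 0.29. The list median was -0.25 (-0.43 with log2 *Xist* as a covariate), and its summed level was 9.62 to 9.65 at 7 months and reached 10.09 at 2 months, where all 3 libraries were higher. Of the 11 inhibitors and D cyclins, 0 were called and 6 were lower without overlap, against 19.6% of all autosomal genes. *Cdkn1b* itself differed by -0.46 (limma adjusted p = 0.152), with 8.57 and 8.75 against 9.33, 9.08 and 8.96. *Ccnd2*, the cyclin D2 gene, also differed by -0.46 (limma adjusted p = 0.252).

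Matrix and signalling genes were among the falls. *Col3a1* (ENSMUSG00000026043; chromosome 1, 45311538 to 45349706), a fibrillar collagen gene, was at 5.27 and 5.63 against 6.65, 6.90 and 7.06, and fell by 1.42 (SE 0.30, limma adjusted p = 0.0468). *Col3a1* no longer passed when corrected for GC content (limma adjusted p = 0.0622) or when p-values were adjusted over autosomal genes alone (0.0551), nor without any 1 of the 5 WT libraries (0.0554 to 0.284). It was the 1 gene called of 21 fibrillar collagen and matrix genes, whose median was -0.37. Over all autosomal genes, 0.279% were called lower. *Sparc* differed by -1.0, *Mmp2* by -0.80 and *Col1a1* by -0.71, and *Col11a1* was higher by 0.35 without overlap. *Adamts1*, a secreted protease of the matrix, was at 6.21 and 5.67 against 6.97, 7.88 and 7.42, and fell by 1.48 (limma adjusted p = 0.0357). The basement membrane list (13 genes, 0 called) had a median of -0.16 (0.05 without replicate 2 of 7 months), with *Nid1*, the nidogen gene, at -0.74 (limma adjusted p = 0.0674).

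*Ednrb* (ENSMUSG00000022122; chromosome 14, 103814615 to 103844508), the endothelin receptor type B gene, was at 9.03 and 8.63 at 7 months and at 10.23, 10.02 and 10.11 at 2 months. It fell by 1.29 (SE 0.20, limma adjusted p = 0.0203), and by 0.80 with log2 *Xist* as a covariate. *Fzd1* (ENSMUSG00000044674; chromosome 5, 4753839 to 4758216), a Frizzled receptor of Wnt ligands, was at 6.0 and 6.48 against 7.64, 8.04 and 7.64 and fell by 1.54 (SE 0.24, limma adjusted p = 0.0201). *Cd109*, a cell surface protein that binds transforming growth factor beta, was at 5.05 and 5.32 against 7.15, 7.28 and 7.10. It fell by 1.99 (SE 0.30, limma adjusted p = 0.0201), and by 1.05 with log2 *Xist* as a covariate. Some genes of lower level were chosen after their values were seen. Of these *Grem1*, a secreted antagonist of bone morphogenetic proteins, fell by 2.10, *Pappa2*, a protease of insulin-like growth factor binding proteins, fell by 1.60, and *Phlda1* fell by 1.56 (limma adjusted p = 0.0292, 0.0378 and 0.0429; *Phlda1* 0.0514 after the GC correction). *Grem1* was highest in replicate 1 of 2 months, at 6.77 against 5.05 and 5.30 in the others, and was at 3.42 and 3.78 at 7 months.

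The other falls of the larger genes were spread over functions. *Gem*, a small GTPase that inhibits calcium channels, fell by 1.29 and *Btg3*, an antiproliferative gene, by 1.25 (limma adjusted p = 0.0282 and 0.0201). *Srp14*, a subunit of the signal recognition particle, was at 5.90 and 6.08 against 7.07, 7.48 and 7.21 and fell by 1.27 (SE 0.21, limma adjusted p = 0.0233). *Resp18*, a protein of endocrine secretory pathways, was at 8.43 and 8.55 against 9.31, 9.52 and 9.78, and fell by 1.05 (SE 0.19, limma adjusted p = 0.0289). *Kank2*, a regulator of the actin skeleton, fell by 1.11, the tubulin folding cofactor gene *Tbca* by 1.06 and *Mettl7a1* by 1.05, of which *Tbca* was not called after the GC correction (limma adjusted p = 0.0951). *Gm10800* was at 10.85 and 12 against 14.69, 13.31 and 15.10 and fell by 2.94 (SE 0.52, limma adjusted p = 0.0289), with *Gm10801* beside it at -2.83. The last pair share sequence with repeats elsewhere in the genome, so their levels are uncertain.

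Ribosomal protein genes were lower nearly throughout, and few were called. The sequences around the annotated start are shown for *Fau* and *Rpl7a*, which are called, and for *Rpl27a*, the largest difference of the ribosomal protein list, because such genes are known for an oligopyrimidine tract at the start that marks their messengers for control of translation. Each window holds 15 bases before the start and 15 from it, 5′ to 3′, on the plus strand of GRCm38.p6 and from RefSeq, with the longest run of C and T near the start in capitals.
Fau, chr19:6057932-6057961: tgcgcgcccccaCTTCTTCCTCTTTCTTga
Rpl7a, chr2:26910792-26910821: aTTCCCTCTTCTTTCTTTCTCCagcagccg
Rpl27a, chr7:109519180-109519209: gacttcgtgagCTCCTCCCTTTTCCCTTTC

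The runs are 16, 21 and 20 bases long, the last going on past the window. A run of at least 8 C or T on the gene's strand was sought that touches the 5 bases on either side of the start. It was found in 25 of the 56 ribosomal protein genes tested with an entry (44.6%). The share was 12.4% of the 10299 autosomal genes tested with an entry, and 11.4% of all 27025 genes with one. *Fau*, which encodes a ubiquitin-like protein fused to ribosomal protein S30, was at 5.43 and 5.59 against 6.47, 6.78 and 6.69 and fell by 1.14 (SE 0.19, limma adjusted p = 0.0277). *Rpl23a*, which has no entry, fell by 1.04, from 8.77, 9.09 and 9.60 to 8.16 and 8.07, and *Rpl7a* by 0.79, from 9.19, 9.42 and 9.43 to 8.53 and 8.59 (both limma adjusted p = 0.0453). *Rpl23a* was not called after the GC correction (limma adjusted p = 0.0531). *Rpl27a* was at 8.10 and 7.97 against 8.49, 8.82 and 9.37, a difference of -0.86 that did not pass (limma adjusted p = 0.105). All 3 of these falls were seen before the genes were picked.

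Over 78 autosomal genes with the symbol of a ribosomal protein or of a close copy, 3 fell and 0 rose, 57 were lower and 0 higher without overlap, and the median was -0.60, from -1.14 to 0.07. Over all autosomal genes the median was -0.03, with 19.6% lower and 15.7% higher without overlap. Of these, 0.279% were called lower and 0.264% called higher. In p27-/- lobes the median of the 78 genes was -0.15. Ribosomal protein genes have many processed pseudogenes, between which the authors' counting could split reads, so single values are uncertain. In the list of 20 genes, 0 were called, and their summed level was 12.80 to 13.01 at 7 months against 13.13 to 13.68 at 2 months. Their median was -0.64, or -1.08 in the fit that includes log2 *Xist*.

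The WT age difference followed GC content and exonic length across genes. In the decile of autosomal genes with the lowest exonic GC content the median difference was -0.20, and in the highest it was 0.13. In the decile of shortest genes it was -0.16, and in the longest 0.05. The Spearman correlation across the 13624 genes was 0.288 with GC content and 0.169 with length. Genes are not independent replicates, and these values describe the libraries. In p27-/- lobes the trend with GC content ran the other way, from 0.16 to -0.17. The 36 genes that rose had a median GC content of 54.8% and a median exonic length of 5736 bases, and the 38 that fell had 47.0% and 2999 bases, against 49.4% and 3765 bases over all autosomal genes. After the GC correction 59 genes were called, 49 of them among the 74, so that 13 of the rises and 12 of the falls were lost. The part of RNA quality in these trends was not tested.

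**Figure D3:**
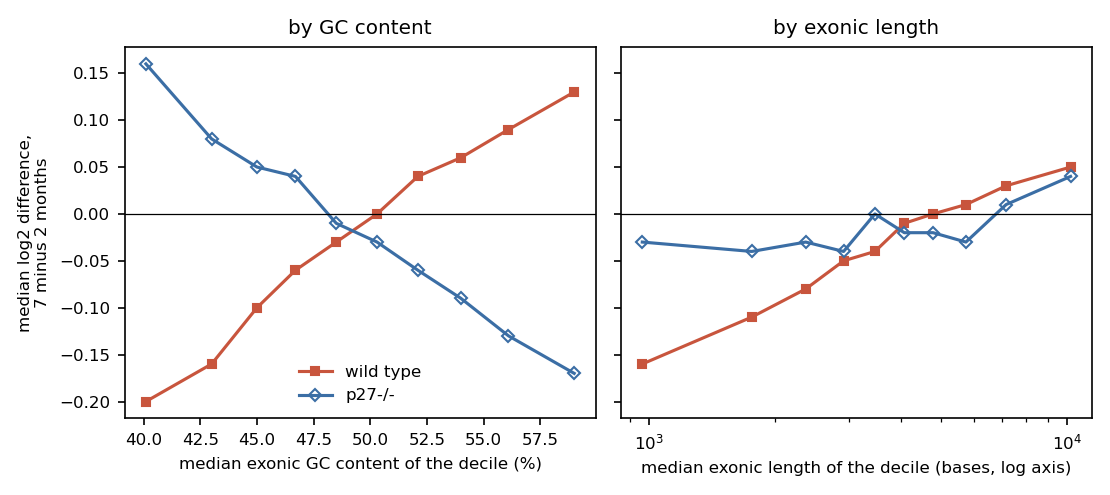
Each point is the median log2 difference between 7 and 2 months in a decile of autosomal genes, ordered by exonic GC content (left, %) or exonic length (right, bases, log axis), in WT (squares) and p27-/- (diamonds) lobes. In WT the medians go up from -0.20 to 0.13 with GC content and from -0.16 to 0.05 with length, and in p27-/- they go down from 0.16 to -0.17 with GC content.

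Melanotroph genes were not called. *Pomc* (ENSMUSG00000020660; chromosome 12, 3954945 to 3960643) was at 16.25 and 16.12 at 7 months and at 16.53, 17.09 and 16.78 at 2 months, a difference of -0.61 (SE 0.31, limma adjusted p = 0.311). The ages did not overlap, with SDs of 0.0953 (n = 2) and 0.28 (n = 3). *Pcsk1*, the PC1 gene, differed by -0.63 and *Pcsk2*, the PC2 gene, by -0.11 (limma adjusted p = 0.152 and 0.797). *Scg2*, a secretogranin of the dense core granule, was at 12.92 and 12.84 against 13.86, 13.54 and 13.79 (-0.85, limma adjusted p = 0.0614), and *Vgf*, another granule protein gene, was higher by 0.87 (limma adjusted p = 0.101). Of the 17 genes for POMC processing and the secretory granule, 0 were called. Without overlap 7 were lower and 1 was higher, against 19.6% and 15.7% of all autosomal genes. The list median was -0.11. This median was 0.03 after quantile normalisation, 0.02 after the GC correction and -0.24 without replicate 2 of 7 months.

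*Tbx19* differed by -0.02 (SE 0.18, limma adjusted p = 0.96), and its sign changed with the scaling of the libraries. *Pax7* was at 11.56 and 11.37 against 11.23, 11.35 and 11.27, higher by 0.18 (SE 0.14, limma adjusted p = 0.529). The list of melanotroph transcription factors (15 genes, 0 called) had a median of -0.41 (-0.26 with the GC correction and log2 *Xist*). Of its genes 8 were lower and 1 higher without overlap, against 19.6% and 15.7% of all autosomal genes. Its lowest members were the orphan nuclear receptor genes *Nr4a1* (-1.50) and *Nr4a2* (-1.15), which also respond to acute stimuli. Among 10 receptors of melanotrophs, 0 were called and the median was 0.03 (-0.29 without replicate 2 of 7 months). The dopamine receptor gene *Drd2* differed by -0.27, while *Gabbr1* and *Gabbr2*, the subunits of the GABA-B receptor, were higher by 0.40 and 0.80 (limma adjusted p = 0.226 and 0.172).

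SC genes did not pass either. *Sox2* was at 6.97 and 6.58 at 7 months and at 7.75, 7.41 and 7.26 at 2 months, a difference of -0.70 (SE 0.20, limma adjusted p = 0.107). *Sox9* was at 8.17 and 7.41 against 8.33, 8.35 and 8.05, a difference of -0.45 (SE 0.21, limma adjusted p = 0.271), with overlap. Of 17 SC genes, 7 were lower and 1, the retinaldehyde dehydrogenase gene *Aldh1a1* (0.46), was higher without overlap. The shares over all autosomal genes were 19.6% and 15.7%. The median of the SC genes was -0.42. It was -0.26 without replicate 2 of 7 months, -0.19 in the fit that includes log2 *Xist*, and -0.12 when the GC correction was added.

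Metabolic and stimulus lists had 0 genes called. Of 17 autosomal genes of cholesterol synthesis, 11 were lower without overlap and 1 was higher, against 19.6% and 15.7% of all autosomal genes. Their median was -0.32. *Stard4*, a sterol carrier, was the lowest (-0.76, limma adjusted p = 0.0558), and *Sqle* and *Fdft1*, enzymes of squalene metabolism, were at -0.46. The summed level was 11.72 to 11.73 at 7 months against 12.03 to 12.05 at 2 months, the narrowest spread of these lists. The nuclear genes of oxidative phosphorylation (18) had a median of -0.28 (-0.17 without replicate 2 of 7 months). Of the 13 mitochondrially encoded genes, which are not autosomal, 6 were lower and 0 higher without overlap, against 19.6% and 15.7% of autosomal genes. Their median was -0.96. It was -0.62 without replicate 1 of 7 months, -0.56 without replicate 3 of 2 months and -0.60 after the GC correction. The median of the circadian clock list (18 genes) was 0.05, of the glucocorticoid responsive list (11) -0.17, of the immediate early list (15) -0.22, of the unfolded protein response (19) -0.22, and of the steroid hormone receptors and targets (12) 0.01. Without 1 WT library the clock median went down to -0.04, the steroid median to -0.08 and the glucocorticoid median to -0.35, the immediate early median lay between -0.44 and 0.06, and the unfolded protein response between -0.34 and -0.11. With log2 *Xist* the glucocorticoid median was 0.04. *Dusp1*, a phosphatase induced by glucocorticoids and stress, was the lowest of the glucocorticoid genes (-1.62, limma adjusted p = 0.0823).

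**Figure D4:**
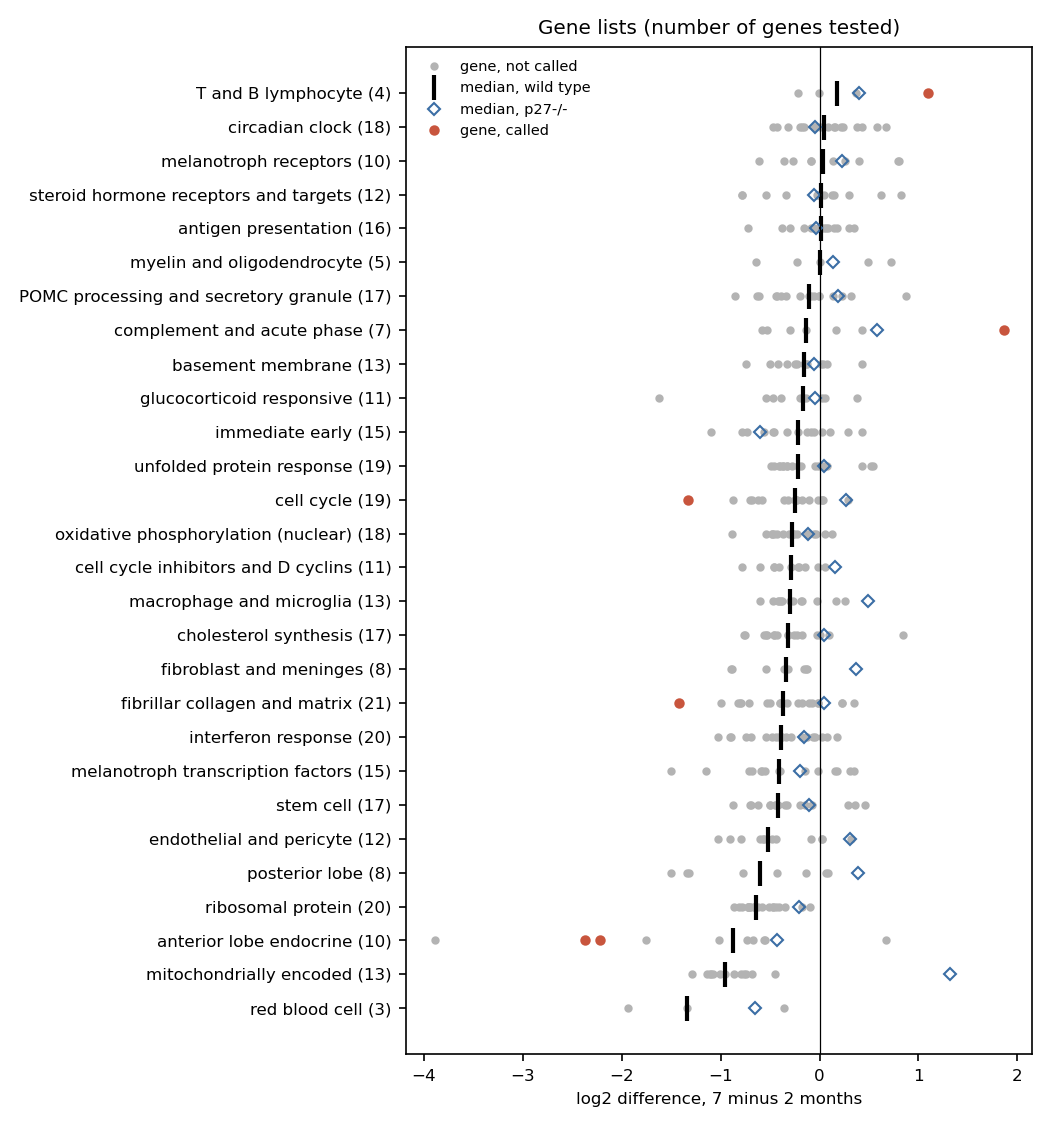
Each dot is a gene of a list, placed by its log2 difference between 7 and 2 months in WT (grey, not called; red, called). Black bars mark the list medians in WT and open diamonds those in p27-/- lobes. Most WT medians lie left of 0, down to -0.96 for mitochondrially encoded and -1.34 for red blood cell genes (-0.56 and -0.53 without replicate 3 of 2 months), and 6 list genes were called.

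The p27-/- lobes were set beside the WT difference. Their libraries do not enter that difference, but they share in the estimate of spread behind its SEs and calls. There 6 of the 13624 genes (0.044%) were called between 7 and 2 months, and the interaction, which tests whether the age difference depends on genotype, called 0 genes (0%) by limma, while 2190 had an unadjusted p under 0.05 and the adjusted p went no lower than 0.0658. No gene can therefore be said to change with age in WT alone. Of the 36 genes that rose in WT, 24 were higher and 12 lower at 7 months in p27-/- lobes with a median of 0.18. Of the 38 that fell, 22 were lower and 16 higher there, with a median of -0.11. Over all 13624 autosomal genes, 7177 were lower and 6447 higher there, with a median of -0.02.

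Of the 36 rises 3 were also called in p27-/- lobes, and of the 38 falls 0 were. *Gnal* rose by 1.41 in p27-/- lobes (limma adjusted p = 0.0196), from 8.33 and 8.63 to 9.69, 9.97 and 10.03. *Hapln4* rose by 1.58 (limma adjusted p = 0.0305) and *Gm10419* by 1.26 (limma adjusted p = 0.0461). For these genes the libraries of both genotypes separated by age. *Nxph1* had a difference of 1.2 in p27-/- that did not pass (limma adjusted p = 0.0597), next to its rise of 1.19 in WT. *Gh* was at 11.09 and 11.65 at 2 months and at 9.70, 8.89 and 9.99 at 7 months in p27-/- lobes, a difference of -1.84 (limma adjusted p = 0.0597), and *Cga* differed by -1.91 (limma adjusted p = 0.169). The p27-/- libraries hold 1 *Xist*-high library at each age.

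The other extreme was *Mki67*, at 7.88 and 8.53 at 2 months and at 8.89, 9.85 and 8.95 at 7 months in p27-/- lobes. Its difference there was 1.02 (limma adjusted p = 0.19) against the WT fall of 1.33, and the interaction of -2.35 had an adjusted p of 0.0658 by limma. *Gzmb* was at 2.78 and 2.49 against 3.25, 2.60 and 2.94 in p27-/- lobes, a difference of 0.29. *Col3a1* differed by 0.39 in p27-/- lobes and *Fzd1* by 0.16, with interactions of -1.80 and -1.69 (limma adjusted p = 0.112 and 0.0824). *Reln* differed by -0.27 there, with an interaction of 2.69 (limma adjusted p = 0.112).

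**Figure D5:**
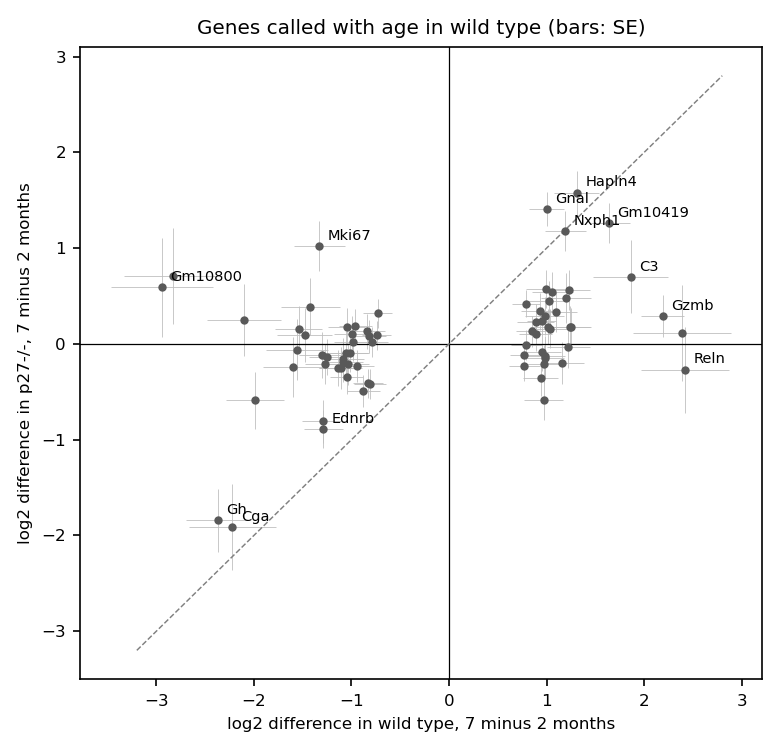
Each point is 1 of the 74 called genes, with its log2 difference between 7 and 2 months in WT on the x axis and in p27-/- lobes on the y axis. Bars are standard errors and the dashed line marks equal differences. *Gh*, *Cga*, *Gnal*, *Hapln4*, *Nxph1* and *Gm10419* lie near the line, and *Mki67* lies on the other side of 0 in p27-/- (1.02).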

How the data were processed

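RNA of dissected ILs was amplified and sequenced. According to the study's methods, the authors aligned reads with STAR (2.5.2a), counted them per gene with RSEM (1.3.30) against GRCm38, and normalised with DESeq2 (1.18.1). The strand setting of RSEM was not directional, so overlapping antisense genes cannot be told apart. The deposited table holds log2 values of 39021 gene IDs (-1.90 to 22.14), and its transform is not named. Low genes appear shrunken, which understates their differences. The values were used as deposited, without the pseudocount planned for linear values.

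Groups and replicate numbers came from the sample titles. Genes whose values, taken off the log2 scale, averaged at least 10 were fitted with limma 3.58.1 (R 4.3.3) over all 10 libraries, with 4 group means, 6 residual degrees of freedom and a mean-variance trend. P-values are two-sided, adjusted by Benjamini-Hochberg over the 16556 genes tested, and measure the spread between libraries. Chromosomes came from RefSeq (GRCm38, 13190 autosomal genes) or GENCODE M1 (434), and exonic GC content and length from NCBIM37 with GENCODE M1. The 2384 IDs with no chromosome found were tested but not described. A list's summed level is the log2 of its summed back-transformed values. The named genes are the 15 largest rises and falls among called genes with a mean of at least 100 in WT, called list genes and landmark genes. Some genes are not reported here. Members and lists were chosen with earlier results of these data known. The scripts were checked on simulated data. The alternatives were other filters, pseudocounts, scalings, variance models, covariates, a replicate block, and leaving out each library.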

Additional observations from a re-analysis of the deposited data

How the results depend on the processing

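All 74 genes kept their direction under every alternative in which they were tested. For most alternatives this was fixed in advance. The ages of these genes do not overlap, and the WT difference uses no p27-/- library. Only the scalings, the GC correction, the covariate and the block could have changed a direction. The count of WT calls was 74, and it was 3 without a filter on low values, 18 without the mean-variance trend, 36 with library quality weights, 0 when log2 *Xist* was a covariate and again 0 when the GC correction was added to it. Under the other alternatives with all libraries, apart from the block, it lay between 58 and 110. The share of calls that were higher was 48.6%, and it was 60% after quantile normalisation and 68.2% with equal totals without mitochondrial genes, which moved the median of all autosomal genes by 0.08. Leaving out 1 library gave 1 to 99 calls. Same-numbered WT libraries did not deviate together (correlations of -0.01 and -0.121), and with the replicate number as a block the count was 36, or 40 with the GC correction as well. In p27-/- lobes the count of 6 became 0 without a filter, 3 at a minimum mean of 50, 19 with only the compared groups, 2 with equal totals, 134 with quality weights, 2 with log2 *Xist*, 11 with the replicate block and GC correction, and 0 to 23 without 1 library. The interaction count of 0 became 2 with equal totals, 26 with quality weights and 0 to 32 without 1 library. The cause of these shifts was not tested. The sign of *Tbx19* changed to 0.08 after quantile normalisation, 0.05 with equal totals, 0.07 with the replicate block and 0.05 with block and GC correction, and without 1 library its difference ran from -0.15 to 0.10 (0.02 without replicate 3 of 2 months). That of *Ddx3y* changed to 0.39 with log2 *Xist* and to 0.62 with the GC correction as well. Depth is unknown, so what it limits cannot be given.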
